A study of Mus musculus with 16 samples.

Results

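The genes described here are the regulators of the G1 phase of the cell cycle in mouse islets: the 3 D-type cyclins (*Ccnd1*, *Ccnd2* and *Ccnd3*), the kinases they bind (*Cdk4* and *Cdk6*), and 5 CDK inhibitors, *Cdkn1a*, *Cdkn1b* and *Cdkn1c* of the CIP/KIP family and *Cdkn2a* and *Cdkn2c* of the INK4 family. They were chosen by name, as the rows of the count table whose Ensembl mouse identifier carries the symbol of a member. All 10 were found among the 52636 genes of the table, and all 10 were among the 18587 genes with enough counts to be tested. Pancreatic islets of 12-week-old male mice (strain C57BL/6JRj in the sample labels, C57BL/6NRj in the study's methods) were kept in RPMI medium with human serum over 10 days, either without additions (control), with 50 pg/mL of the cytokine IL-1β, with 0.2 mM of butyrate, a short chain fatty acid of gut bacteria that inhibits histone deacetylases, or with IL-1β and butyrate together. No group carried a transgene or a deletion. Each of the 4 conditions had 4 RNA-seq libraries from independent experiments, numbered as replicates 1 to 4 in the labels, and each library held the RNA of 500 islets pooled from several mice. The replicates thus differ by experiment, and differences between single mice are not seen.

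A cell that leaves rest passes through G1, in which D-type cyclins accumulate in response to growth signals and activate CDK4 and CDK6. The active kinases phosphorylate the retinoblastoma protein RB, which then releases E2F transcription factors, and E2F turns on the genes of DNA replication. INK4 proteins bind CDK4 and CDK6 and keep the cyclins away from them, whereas CIP/KIP proteins bind cyclin-CDK complexes, above all those of CDK2. Adult beta cells, the insulin-secreting cells that make up most of a mouse islet, divide rarely, and their growth after birth in the mouse is known to need *Ccnd2* and *Cdk4*.

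Whole islets were sequenced, and a lower value of a gene can stand for fewer cells of a type or for less of its RNA in each cell, which cannot be told apart in such libraries. The libraries held 18635943 to 25955943 counts. The 6 beta cell markers, both insulin genes among them, summed to between 136300 and 260400 CPM in every library (CPM, reads scaled to 1000000 per library after adjusting its size by TMM), and of 3 T cell markers *Cd3d* had at most 3 counts in every library, while *Cd3e* had means of 1.37 to 1.88 CPM and *Cd3g* of 0.373 to 0.725. With IL-1β, 5 of 6 beta cell markers fell and 1 rose, and 6 of 7 macrophage markers rose while *C1qa* fell. Over all tested genes 11.2% rose and 6.59% fell. The sum of the 7 macrophage markers was 117.5 to 135.3 CPM in control, 149.8 to 171.6 with IL-1β, 77.2 to 100.6 with butyrate and 86.5 to 107.4 with both, but *C1qa* alone had 111.3 ± 11.1 CPM in control. The 6 others summed to 11.01 to 17.93 CPM in control, 58.7 to 103.9 with IL-1β, 8.84 to 12.1 with butyrate and 28.6 to 62.4 with both. With both against control, 4 of the 7 rose and *C1qa* fell, where 15.8% of all tested genes were raised and 14.8% lowered. The 1 fall is near that share. Of 4 duct markers 2 rose with IL-1β, among them *Spp1* from 11.9 ± 2.7 to 158.2 ± 45.8 CPM. With butyrate alone the delta cell hormone gene *Sst* rose from 1650 ± 143 to 2418 ± 160 CPM (log2 fold change 0.55, FDR = 2.8e-05), 1 of 2 delta cell markers. Also with butyrate alone, 1 of 6 beta cell markers rose and 1 fell, and of the macrophage markers *C1qa* fell. Over all tested genes 8.53% rose and 11.4% fell with butyrate. The part of these cell type markers in the changes of the G1 genes was not tested.

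To compare genes with each other, levels were set per length, as CPM per kilobase of exon. In control islets *Ccnd2* stood first with 88.3 ± 7.6 CPM per kilobase (SD, n = 4). *Cdk4* with 40.5 ± 1.3 and *Ccnd1* with 36.2 ± 2.7 followed, and their ranges overlapped. Next came *Cdkn1b* with 26.0 ± 0.69 and *Cdkn1a* with 17.97 ± 1.17, each apart from its neighbours. *Cdkn2c* with 5.39 ± 1.27 and *Ccnd3* with 5.06 ± 0.21 could not be ordered. The lowest levels were those of *Cdkn2a* with 0.552 ± 0.126, *Cdkn1c* with 0.283 ± 0.138 and *Cdk6* with 0.195 ± 0.035, of which each overlapped the next. The first 5 genes kept these places by their means in all 4 conditions, although *Ccnd1* and *Cdkn1b* overlapped in the islets that had received IL-1β, with or without butyrate.

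**Figure D1:**
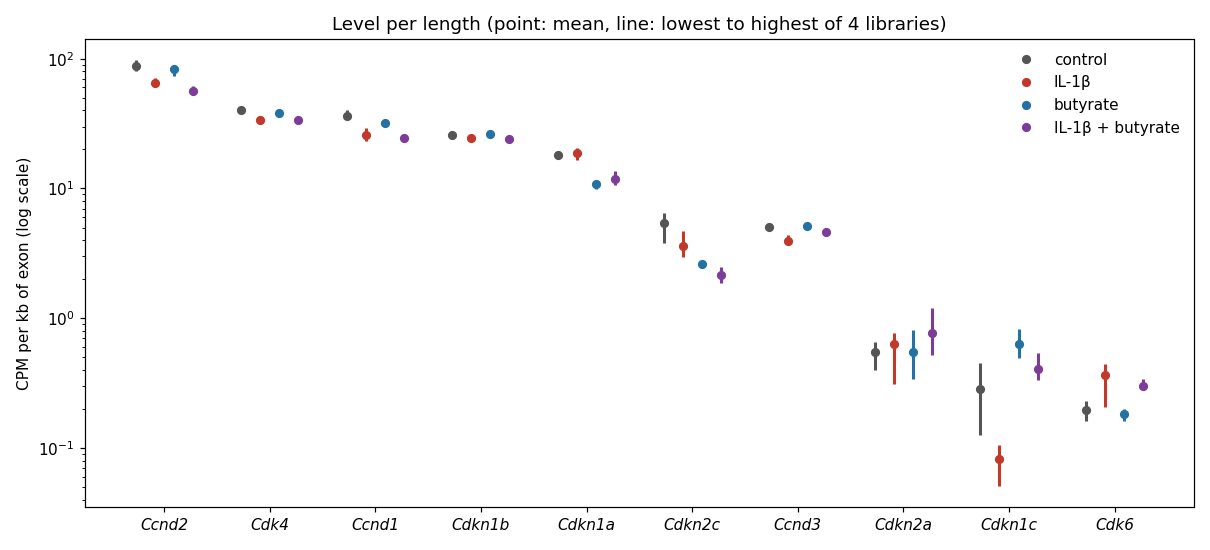
Level of the 10 G1 genes in each condition, in CPM per kilobase of exon on a log axis, with a point for the mean and a line from the lowest to the highest of 4 libraries. *Ccnd2* is the highest gene in all conditions (88.3 in control), and *Cdkn2a*, *Cdkn1c* and *Cdk6* lie below 1 in the mean of every condition.

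Within the families, the composition was uneven. *Ccnd2* made up 68.1% ± 3.0 of the summed level per length of the D cyclins in control islets, *Ccnd1* 28.0% ± 3.0 and *Ccnd3* 3.90% ± 0.05. The sum of the 3 cyclins was 129.6 ± 6.2 CPM per kilobase in control, 120.3 ± 7.1 with butyrate, 94.9 ± 6.1 with IL-1β and 85.1 ± 4.3 with both, and the lowest control library (124.3) lay above the highest library of either IL-1β condition (100.7). *Cdk4* made up 99.5% of the 2 kinases in control and 98.9% with IL-1β. Among the CIP/KIP inhibitors *Cdkn1a* made up 40.6% ± 1.2 in control, 43.2% ± 2.3 with IL-1β, 28.5% ± 1.7 with butyrate and 32.6% ± 2.7 with both, so that the libraries with butyrate (at most 36.6%) and those without it (at least 39.3%) did not overlap.

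The D-type cyclins were lowered by IL-1β. All 3 passed the test against control at a false discovery rate (FDR, the Benjamini-Hochberg adjusted p of edgeR's quasi-likelihood test) under 0.01, where 6.59% of all tested genes were lowered and 11.2% raised. *Ccnd2* (ENSMUSG00000000184, GRCm38 chr6:127125162-127152193, minus strand), the main D cyclin of beta cells, had 752.6, 797.2, 916.2 and 856.9 CPM in control replicates 1 to 4 and 626.2, 572.3, 672.4 and 585.4 with IL-1β. The groups did not overlap, and the log2 fold change was -0.44 (SE 0.07, FDR = 2.4e-05), and the level fell by 26.1%. With butyrate alone *Ccnd2* had 696.1, 771.3, 828.1 and 833.6 CPM, within the range of control for 3 of 4 libraries, and the log2 difference from control was -0.09 (95% interval -0.22 to 0.05, FDR = 0.38). With both it had 499.4, 525.3, 580.1 and 498.1 CPM, the lowest values of the 4 conditions except that the highest of them exceeded 1 library with IL-1β alone. Against control *Ccnd2* fell by 0.66 on the log2 scale (SE 0.07, FDR = 3.2e-08). Against IL-1β alone the difference was -0.22 (SE 0.07, FDR = 0.015), which missed the threshold. Of 26 alternative analyses 9 called it. Among them were the fit that pairs the libraries by replicate number (log2 fold change -0.22, SE 0.04, FDR = 0.00011) and DESeq2 (-0.24, FDR = 0.004).

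*Ccnd1* (ENSMUSG00000070348, chr7:144929931-144939925, minus strand), the D cyclin that many growth factors induce, had 189.8, 163.3, 164.8 and 164.5 CPM in control and 138.2, 117.7, 119.6 and 108.6 with IL-1β, groups without overlap (log2 fold change -0.50, SE 0.06, FDR = 1.4e-07). Butyrate libraries lay between, with 149.7, 150.2, 147.0 and 155.1 CPM, below every control library and above every library with IL-1β. The log2 difference of butyrate from control was -0.18 (SE 0.06) with an FDR of 0.018, which the fit paired by replicate number lowered to 0.0012. Control replicate 1 was far above the other 3, and without it the FDR of this difference was 0.10. With both treatments *Ccnd1* had 119.9, 115.8, 115.3 and 112.7 CPM, inside the range with IL-1β alone (log2 difference -0.06, 95% interval -0.17 to 0.05, FDR = 0.47). Of its exon bases 23.4% are shared with *LTO1* on the opposite strand, and since the library kit did not keep strand, reads there cannot be assigned to either gene from their strand. *LTO1* had 31.0 ± 1.7 CPM with IL-1β and 29.0 ± 0.93 in control (log2 difference 0.09, FDR = 0.24).

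*Ccnd3* (ENSMUSG00000034165, chr17:47505051-47599691, plus strand), the least abundant D cyclin here, went from 42.6, 43.2, 46.4 and 45.3 CPM in control to 32.6, 38.5, 33.4 and 33.6 with IL-1β (log2 fold change -0.36, SE 0.06, FDR = 1.4e-05). With butyrate alone it had 43.6, 46.1, 47.6 and 43.7 CPM, which overlapped control. With both it had 41.7, 39.5, 43.5 and 38.0 CPM, and it rose against IL-1β alone (log2 fold change 0.24, SE 0.06, FDR = 0.0020), although the lowest of these libraries lay under the highest with IL-1β alone. This call was lost, with an FDR of 0.013 to 0.022, when IL-1β replicate 1, 3 or 4 or replicate 1 or 3 of IL-1β plus butyrate was left out. Against control the difference was -0.12 (95% interval -0.23 to -0.02, FDR = 0.078). On top of IL-1β, butyrate thus gave log2 differences of -0.22 for *Ccnd2*, -0.06 for *Ccnd1* and 0.24 for *Ccnd3*, which were not tested against each other. The share of *Ccnd3* among the D cyclins was 5.45% ± 0.19 with both treatments against 4.17% ± 0.53 with IL-1β.

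**Figure D2:**
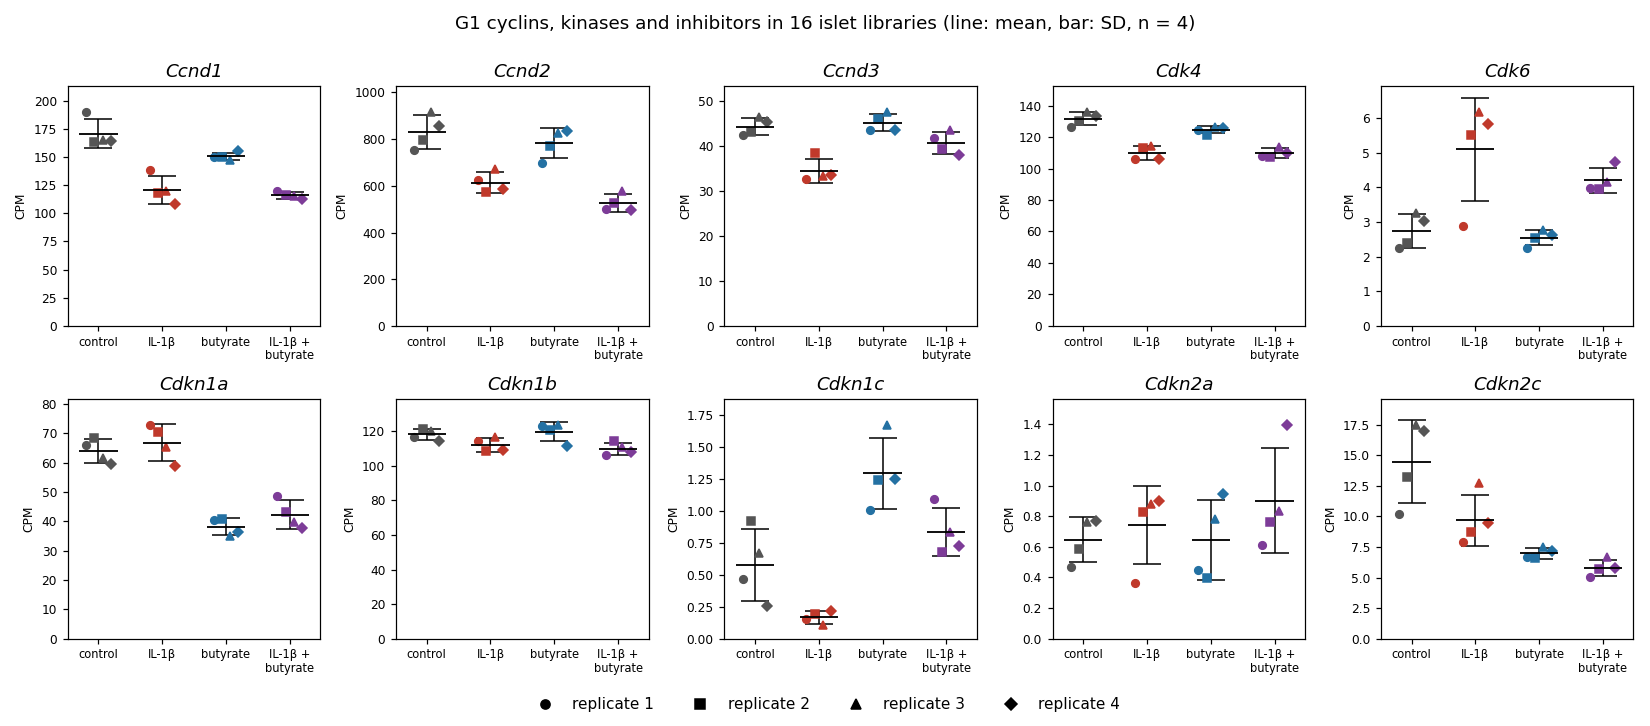
CPM of each G1 gene in all 16 libraries, by condition, with a symbol for each replicate number, a line for the mean and a bar for the SD (n = 4); each panel has its own axis, which starts at 0. The IL-1β libraries of *Ccnd2* (572.3 to 672.4) lie below those of control, and the butyrate libraries of *Cdkn1a* (35.1 to 41.0) below all control and IL-1β libraries.

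The kinases changed in opposite directions with IL-1β. *Cdk4* (ENSMUSG00000006728, chr10:127063534-127067920, plus strand) had 126.2, 130.4, 135.9 and 133.7 CPM in control and 106.1, 113.1, 114.4 and 106.1 with IL-1β, and fell by 0.26 on the log2 scale (SE 0.04, FDR = 2.7e-05). With butyrate it had 124.7, 121.3, 126.7 and 126.0 CPM, overlapping control in 1 library (log2 difference -0.08, 95% interval -0.16 to 0.01, FDR = 0.18). With both it had 108.1, 107.2, 114.0 and 109.7 CPM, which is the level with IL-1β alone (log2 difference -0.00, 95% interval -0.09 to 0.08, FDR = 0.98) and below butyrate alone (-0.18, SE 0.04, FDR = 0.0018). The last call was lost when counts were scaled by library size only (FDR = 0.17) or when no low counts were filtered out (FDR = 0.023). *Tspan31*, on the opposite strand, shares 19.7% of the exon bases of *Cdk4*. It had 61.3 ± 2.5 CPM in control, 62.9 ± 2.2 with IL-1β and 74.3 ± 3.4 with butyrate, and rose with butyrate (log2 fold change 0.28, FDR = 8.1e-05), opposite in sign to *Cdk4*.

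*Cdk6* (ENSMUSG00000040274, chr5:3341485-3531008, plus strand) was present at 45 to 161 counts per library. It had 2.24, 2.38, 3.25 and 3.04 CPM in control and 2.90, 5.50, 6.17 and 5.81 with IL-1β, and rose by 0.91 on the log2 scale (SE 0.17, FDR = 0.00019), the only G1 gene raised by IL-1β. IL-1β replicate 1 lay inside the control range and the other 3 above it. With butyrate *Cdk6* had 2.26, 2.53, 2.77 and 2.62 CPM, within the control range. With both it had 3.98, 3.95, 4.16 and 4.72 CPM, above every control and butyrate library. This rise passed the test against control (log2 fold change 0.62, SE 0.18, FDR = 0.0055) and against butyrate (0.72, SE 0.18, FDR = 0.0038). The call against control was lost, at an FDR of up to 0.024, without control replicate 1 or 2 or without replicate 1, 3 or 4 of IL-1β plus butyrate, and that against butyrate, at up to 0.018, without replicate 3 or 4 of IL-1β plus butyrate or replicate 1, 2 or 4 of butyrate.

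The comparison of butyrate on top of IL-1β depended for *Cdk6* on IL-1β replicate 1. With all libraries the difference was -0.29 (95% interval -0.61 to 0.03, FDR = 0.19), and without IL-1β replicate 1 it was -0.49 (FDR = 0.0044). Markers of other cell types also differed between these libraries. The sum of 6 fibroblast and stellate cell markers was 4.40 CPM in IL-1β replicate 1 and 9.79 to 12.2 in the other IL-1β libraries, and the sum of the 6 macrophage markers other than *C1qa* was 58.7 CPM in replicate 1 and 72.2 to 103.9 in the others. Of the 6 fibroblast and stellate markers, 1 (*Pdgfrb*, log2 fold change -1.57) fell with IL-1β and 0 rose. Of the 7 macrophage markers, 6 rose, such as *Adgre1* with a log2 fold change of 2.45 and *Ptprc* with 2.07. *Pecam1*, an endothelial marker that leukocytes also carry, rose by 0.92. It was the only one called of the 4 endothelial markers tested, of which 1 rose and 0 fell, with a median of -0.2. The mean CPM of the other listed endothelial markers, *Cdh5*, *Kdr*, *Plvap* and *Esm1*, was lower with IL-1β than in control. The part of these cell type markers in the *Cdk6* values was not tested.

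Among the CIP/KIP inhibitors, butyrate lowered *Cdkn1a*. This gene (ENSMUSG00000023067, chr17:29090976-29100727, plus strand) encodes p21, which the tumour suppressor p53 induces and which stops the cell cycle by inhibiting cyclin-CDK complexes. It had 65.9, 68.6, 61.5 and 59.4 CPM in control and 40.6, 41.0, 35.1 and 36.3 with butyrate, groups far from overlap. The log2 fold change was -0.74 (SE 0.08, FDR = 4.4e-07), and the level fell by 40.1%, in a comparison in which 11.4% of tested genes were lowered and 8.53% raised. With IL-1β alone it had 72.9, 70.5, 65.3 and 58.8 CPM, a spread that covered the control values (log2 difference 0.06, 95% interval -0.09 to 0.21, FDR = 0.60). With both it had 48.8, 43.1, 39.8 and 37.6 CPM. That was a fall by 0.65 on the log2 scale against IL-1β (SE 0.08, FDR = 1.9e-06), where 11.1% of tested genes were lowered and 8.41% raised. Against butyrate alone the difference was 0.15 (95% interval -0.01 to 0.31, FDR = 0.23). The 2 butyrate effects on *Cdkn1a* differed by 0.09 (95% interval -0.13 to 0.30, FDR = 0.96), and all *Cdkn1a* calls held in each of the 26 alternative analyses.

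The 250 bases before the annotated starts of *Cdkn1a* are shown because p21 is a classic target of p53, and because its counts fell here. RefSeq (GRCm38.p6) lists the starts 29090979 and 29093769 on chromosome 17. In the first stretch, capitals mark a match to the p53 consensus site, with both cores intact and 1 mismatch elsewhere, which begins 51 bases before the start. In the second they mark the GC boxes (GGGCGG on either strand), which begin 104 and 46 bases before the start. The p53 search was added after the sequence had been read.
Cdkn1a, chr17:29090729-29090978, plus strand: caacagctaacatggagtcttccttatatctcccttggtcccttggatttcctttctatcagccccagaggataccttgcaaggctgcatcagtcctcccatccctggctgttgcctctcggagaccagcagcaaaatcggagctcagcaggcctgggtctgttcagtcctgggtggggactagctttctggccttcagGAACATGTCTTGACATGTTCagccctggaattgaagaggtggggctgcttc
Cdkn1a, chr17:29093519-29093768, plus strand: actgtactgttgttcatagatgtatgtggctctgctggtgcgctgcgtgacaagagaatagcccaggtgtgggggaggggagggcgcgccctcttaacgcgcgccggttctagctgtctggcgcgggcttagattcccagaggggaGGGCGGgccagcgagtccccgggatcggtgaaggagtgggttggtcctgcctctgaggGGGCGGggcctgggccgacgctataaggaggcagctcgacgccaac
A GC box was present in 32.7% of 32851 mouse promoters of this length, and a p53 site of this kind in 15 of them (0.0457%). The gene counts do not separate the transcripts of the first and the second start. A match of letters is a description and shows no binding.

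*Cdkn1b* (ENSMUSG00000003031, chr6:134920401-134925513, plus strand), which encodes p27, an inhibitor known to hold beta cells at rest, was the steadiest of the 10 genes by the range of its condition means among the 8 with enough counts for that measure (0.13 on the log2 scale). It had 116.9, 121.4, 120.3 and 114.6 CPM in control, 114.1, 108.7, 116.5 and 109.2 with IL-1β, 123.0, 120.6, 123.7 and 111.6 with butyrate, and 106.0, 114.1, 110.7 and 108.1 with both. It passed the test in none of the comparisons by edgeR. The interval of its log2 difference was -0.16 to 0.01 for IL-1β against control and -0.07 to 0.10 for butyrate against control. For both treatments against butyrate alone it was -0.21 to -0.04 (FDR = 0.042), and upper-quartile scaling put this difference past the threshold (-0.16, FDR = 0.0038).

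*Cdkn1c* (ENSMUSG00000037664, chr7:143458339-143461050, minus strand), an imprinted gene for p57, was near the limit of detection. Its raw counts were 10, 22, 14 and 6 in control replicates 1 to 4, 3, 4, 2 and 6 with IL-1β, 20, 28, 32 and 29 with butyrate, and 27, 16, 19 and 15 with both. The libraries with IL-1β alone had 0.104 to 0.217 CPM, below all others (0.257 to 0.917 in control), and those with butyrate alone had 1.00 to 1.67, above every control library. The fall with IL-1β was -1.72 on the log2 scale (SE 0.42, FDR = 0.0026), and the rise with butyrate was 1.15 (SE 0.29, FDR = 0.0037). The gene passed the filter on low counts through the libraries with butyrate, and with control and IL-1β libraries alone it was filtered out and could not be tested. On top of IL-1β, butyrate raised it by 2.24 (SE 0.39, FDR = 7.6e-05). The ratios of the summed counts were 0.298 (95% counting interval 0.156 to 0.537), 2.22 (1.58 to 3.15) and 4.86 (2.77 to 9.10), and these exact intervals cover counting error only. The call for IL-1β was lost without control replicate 2 (FDR = 0.023) or IL-1β replicate 3 (0.012), and that for butyrate alone without control replicate 1 (0.014), control replicate 4 (0.022) or butyrate replicate 3 (0.019). The antisense gene *Gm44732*, which shares 30.7% of the exon bases of *Cdkn1c*, had 0 counts in every library.

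The INK4 inhibitor *Cdkn2c* (ENSMUSG00000028551, chr4:109660876-109667189, minus strand) encodes p18 and had the largest range of condition means of the 8 genes, 1.28 on the log2 scale. It had 10.2, 13.3, 17.5 and 17.0 CPM in control and 6.68, 6.57, 7.47 and 7.18 with butyrate. All butyrate libraries lay below all control libraries, and *Cdkn2c* fell by 1.05 (SE 0.16, FDR = 7.9e-05), or by 51.8%. With both treatments it had 5.04, 5.69, 6.66 and 5.83 CPM, lower than IL-1β alone by 0.74 (SE 0.17, FDR = 0.0032) and lower than control by 1.32 (SE 0.16, FDR = 3.9e-06). The call against IL-1β alone was lost without replicate 1 (FDR = 0.013) or replicate 2 (0.011) of IL-1β plus butyrate.

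With IL-1β alone *Cdkn2c* had 7.91, 8.72, 12.7 and 9.46 CPM, and the highest of these lay above the lowest control library. The log2 fold change was -0.58 (SE 0.15) with an FDR of 0.0090, just inside the threshold, and 16 of 26 alternative analyses lost the call (FDR up to 0.053), whereas the fit paired by replicate number gave an FDR of 3.5e-07. The spread of *Cdkn2c* between experiments stood beside that of DNA replication genes. In control replicates 1 to 4, 16 E2F target genes summed to 203.5, 257.6, 310.8 and 306.9 CPM, in the same order as the *Cdkn2c* values above. With IL-1β the sums were 177.0, 206.9, 227.7 and 197.7 CPM, in which replicate 3 was again the highest and replicate 1 the lowest.

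The stretches before the starts of *Cdkn2c* are shown for comparison with those of *Cdkn1a*, since both genes fell with butyrate. RefSeq (GRCm38.p6) lists the starts 109665372 and 109666756 on chromosome 4, on the minus strand. Capitals mark GC boxes, of which the first stretch holds 0 and the second 3, at 95, 51 and 40 bases before the start.
Cdkn2c, chr4:109665373-109665622, minus strand: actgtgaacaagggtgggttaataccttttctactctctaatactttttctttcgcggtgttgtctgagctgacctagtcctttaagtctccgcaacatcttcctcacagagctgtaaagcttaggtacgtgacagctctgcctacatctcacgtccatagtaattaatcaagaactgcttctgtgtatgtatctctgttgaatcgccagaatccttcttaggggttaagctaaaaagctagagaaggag
Cdkn2c, chr4:109666757-109667006, minus strand: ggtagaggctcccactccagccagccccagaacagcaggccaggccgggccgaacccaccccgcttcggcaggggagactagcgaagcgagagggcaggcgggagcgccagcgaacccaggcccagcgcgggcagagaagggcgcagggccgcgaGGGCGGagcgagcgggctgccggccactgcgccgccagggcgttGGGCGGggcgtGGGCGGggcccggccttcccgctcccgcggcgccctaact
GC boxes were also present before the starts of G1 genes that did not pass the test with butyrate alone, 2 and 1 at the starts of *Ccnd3*, 1 at *Cdk4* and 1 at *Cdkn1b*. The start of *Cdk6* held 0 GC boxes and a TATA box (TATAAA, in 12.4% of promoters). Of the starts of *Cdkn2a*, the upstream one held 2 GC boxes and an E2F site (TTTCCCGC, TTTGGCGC, TTTCGCGC or TTTGCCGC, either strand, in 1.86% of promoters), and the other 0. Promoters of *Ccnd1*, *Ccnd2* and *Cdkn1c* are not shown.

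*Cdkn2a* (ENSMUSG00000044303, chr4:89274471-89294653, minus strand) encodes p16INK4a and, from another first exon, p19ARF, which gene counts do not separate. Its raw counts were 10, 14, 16 and 18 in control, 7, 17, 17 and 25 with IL-1β, 9, 9, 15 and 22 with butyrate, and 15, 18, 19 and 29 with both. The condition means were between 0.646 and 0.900 CPM with overlapping ranges, and it passed the test in none of the comparisons by edgeR. For butyrate against control the 95% interval of the log2 difference was -0.67 to 0.67, so a fall or a rise within these limits cannot be told from no difference. The other INK4 genes, *Cdkn2b* and *Cdkn2d*, also did not pass the test, with log2 differences of 0.21 (FDR = 0.059) and -0.15 (FDR = 0.33) with IL-1β and of 0.26 (FDR = 0.017) and 0.05 (FDR = 0.76) with butyrate. In the fit paired by replicate number *Cdkn2b* rose with butyrate alone (0.25, FDR = 0.0049) and with both treatments against control (0.23, FDR = 0.0074).

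Counted by comparison, 7 of the 10 genes were called with IL-1β alone, where 11.2% of tested genes were raised and 6.59% lowered. *Cdk6* rose and *Ccnd1*, *Ccnd2*, *Ccnd3*, *Cdk4*, *Cdkn1c* and *Cdkn2c* fell. The median log2 difference was -0.31 over the 10 genes against -0.03 over all genes. With butyrate alone 3 were called, *Cdkn1a* and *Cdkn2c* lower and *Cdkn1c* higher, with a median of -0.08 against 0.01. That is near the share over all tested genes (8.53% raised and 11.4% lowered). Butyrate on top of IL-1β gave 4 calls, *Cdkn1a* and *Cdkn2c* lower and *Cdkn1c* and *Ccnd3* higher, with a median of -0.04 against 0.01. There 8.41% of tested genes were raised and 11.1% lowered. *Cdkn1c* is counted although it passed the filter through the libraries with butyrate, and 16 of 26 alternatives lost the call of *Cdkn2c* with IL-1β. These comparisons share libraries and are not independent of each other. Both treatments against control gave 6 calls, *Cdk6* higher and *Ccnd1*, *Ccnd2*, *Cdk4*, *Cdkn1a* and *Cdkn2c* lower, where 15.8% of tested genes were raised and 14.8% lowered. Both treatments against butyrate alone gave 4, *Cdk6* higher (9.92% of tested genes were raised) and *Ccnd1* (-0.38, FDR = 1.4e-05), *Ccnd2* (-0.57, FDR = 6.1e-07) and *Cdk4* lower (4.86% were lowered).

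**Figure D3:**
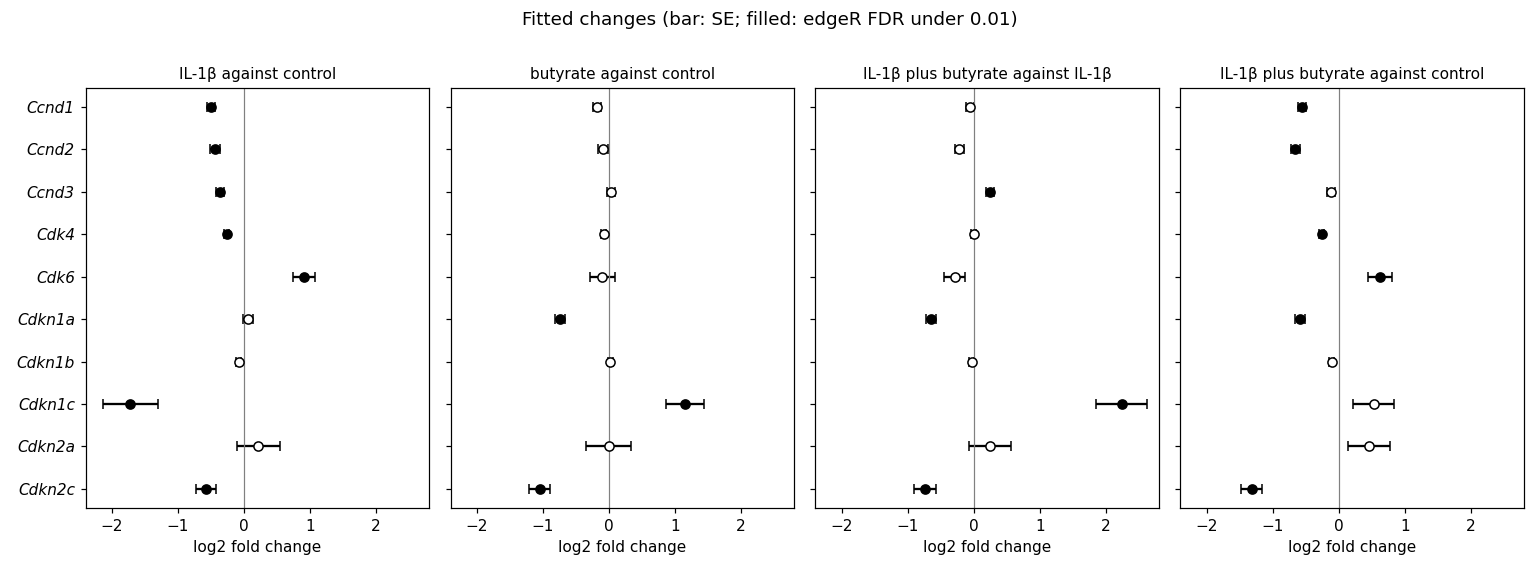
Log2 fold change of the 10 G1 genes in 4 comparisons, with bars for the SE and filled points for an edgeR FDR under 0.01. *Ccnd1*, *Ccnd2* and *Cdk4* lie left of 0 with IL-1β, and *Cdkn1a* and *Cdkn2c* lie left of 0 with butyrate. *Cdkn1c* lies at -1.72, 1.15 and 2.24 in the first 3 panels, but has few counts. It passed the filter on low counts through the libraries with butyrate.

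Whether butyrate acted differently with and without IL-1β was tested as the difference of the 2 butyrate effects. No G1 gene was called by edgeR (0 of 10), and 0 of 10 by DESeq2. At an unadjusted p under 0.05 there were 2 by edgeR, *Ccnd3* and *Cdkn1c*, and 1 by DESeq2, *Ccnd3*. By edgeR 1362 of all 18587 tested genes had an unadjusted p under 0.05 here. *Cdkn1c* passed the filter on low counts through the libraries with butyrate. At an FDR under 0.01, 0.043% of all tested genes were raised and 0.0538% lowered in the edgeR test of this difference. The intervals of the difference were 0.05 to 0.36 for *Ccnd3* (FDR = 0.47), 0.10 to 2.10 for *Cdkn1c* (FDR = 0.64) and -0.15 to 0.78 for *Cdkn2c* (FDR = 0.89). The interval of *Cdkn1c* spans differences of very unequal size.

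The lists around the G1 genes were read next, from RB and its E2F partners to the genes they control. Over all tested genes, 11.2% were raised and 6.59% lowered with IL-1β. The shares were 8.53% and 11.4% with butyrate alone, and 8.41% and 11.1% with butyrate on top of IL-1β. Of 13 genes of RB and E2F, 7 fell with butyrate alone and 0 rose, and 4 fell on top of IL-1β. The activator *E2f1* fell from 27.0 ± 2.3 to 14.3 ± 1.5 CPM (log2 fold change -0.91, FDR = 1.1e-09) and *E2f2* from 12.8 ± 0.74 to 6.23 ± 0.53 CPM (-1.04, FDR = 2.7e-09), and the late repressors *E2f7* (-1.74) and *E2f8* (-2.06) fell as well. With IL-1β 2 of 13 fell, *Tfdp2*, a DNA-binding partner of E2F, by 0.25 and *Rbl1*, the RB relative p107, by 0.36. Of 16 E2F targets, which are mostly genes of DNA replication, 14 fell with butyrate alone, 8 with IL-1β and 12 with butyrate on top of IL-1β, and 0 rose in these comparisons. Their medians were -0.97, -0.38 and -0.50. Examples are the helicase subunit *Mcm2* with -0.90 for butyrate (FDR = 5.6e-10) and -0.47 for IL-1β (FDR = 8.6e-06) and the replication licensing gene *Cdt1* with -0.66 for IL-1β (FDR = 0.00050). Of 10 later cyclins and CDKs, 6 fell with butyrate alone, such as *Ccnb1* (-2.71), *Cdk1* (-2.68) and *Ccna2* (-1.95), and 2 with IL-1β, *Ccnh* (-0.30) and *Ccna2* (-0.60). With butyrate on top of IL-1β 4 of them fell and 1 rose, *Cdk2* (0.54, FDR = 0.0011). The 1 rise is near the share over all tested genes. *Ccnb1* had few reads, with 2.65 ± 0.90 CPM in control and 0.400 ± 0.072 with butyrate.

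The p53 targets, the group of *Cdkn1a*, moved with both agents. Of 15 tested, 6 rose and 1 fell with IL-1β (median 0.25), 8 fell and 0 rose with butyrate alone (median -0.22), and 9 fell and 0 rose with butyrate on top of IL-1β (median -0.29). Over all tested genes 11.2% rose and 6.59% fell with IL-1β, so the 1 fall is near the share. With butyrate 11.4% of all tested genes fell, and on top of IL-1β 11.1%. *Eda2r*, a receptor of the TNF family, had log2 fold changes of 0.80, -1.65 and -1.27 in these comparisons, and the kinase gene *Plk2* had 0.61, -0.82 and -0.48, all of them called. *Trp53*, which encodes p53, rose by 0.36 with IL-1β (FDR = 7.7e-05) and fell by 0.31 with butyrate (FDR = 0.00072). *Cdkn1a* fell with butyrate like 8 of these genes but did not pass the test with IL-1β, in which 6 of them rose. The membership of these lists comes from general knowledge, and a list gives no evidence of the activity of its factor.

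**Figure D4:**
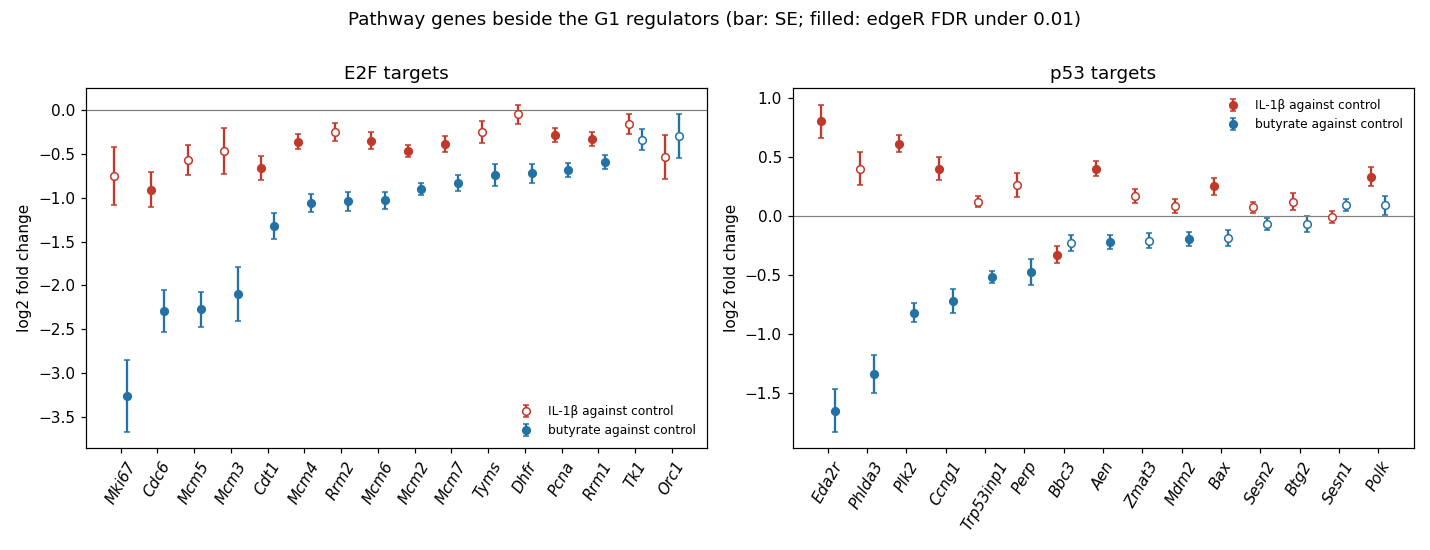
Log2 fold change of 16 E2F targets (left) and 15 p53 targets (right) with IL-1β (red) and with butyrate (blue) against control, with bars for the SE and filled points for an edgeR FDR under 0.01. With butyrate 14 E2F targets and 8 p53 targets fell, and with IL-1β 8 E2F targets fell while 6 p53 targets rose and 1 fell. Over all tested genes 11.4% fell with butyrate, and 11.2% rose and 6.59% fell with IL-1β.

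For upstream regulators and turnover genes the counts were small. Of 12 upstream regulators, 1 rose and 1 fell with IL-1β, which is near the share over all tested genes (11.2% raised and 6.59% lowered), namely *Trp53* and the prolactin receptor gene *Prlr* (-0.81, FDR = 1.6e-05), whose signal is known to raise D cyclins in beta cells during pregnancy. With butyrate alone 3 rose and 3 fell, among them *Foxo1* (0.43), *Myc* (-1.01) and *Foxm1* (-2.67), where 8.53% of tested genes were raised and 11.4% lowered. With butyrate on top of IL-1β 3 rose and 3 fell, where the shares were 8.41% and 11.1%. Among them *Mycn*, a gene of few reads, rose by 1.2 (FDR = 0.00011), from 0.856 ± 0.187 to 1.97 ± 0.53 CPM. Of 9 genes that target G1 proteins for breakdown, 1 rose and 2 fell with IL-1β, the ubiquitin ligase subunits *Fbxw7* (0.39), *Dtl* (-1.0) and *Skp2* (-0.49), the last of which marks p27. With butyrate alone 1 rose and 4 fell, such as *Dtl* (-1.91), *Fbxo4* (-0.40) and *Cks1b* (-0.35). The 1 rise in either comparison is near the share over all tested genes.

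For the 3 genes with the widest range among the 8 with an average log2 CPM of at least 1, which leaves out *Cdkn1c* and *Cdkn2a*, the genes with the most similar pattern over the 16 libraries were found by the root mean square of the differences of log2 CPM, each gene centred on its mean, among 12527 genes. For *Cdkn2c* these were *Atad2* (0.121), *Mcm6* (0.145) and *Smc4* (0.147). Their geometric mean CPM was, in the order control, IL-1β, butyrate and both, 24.4, 17.3, 12.0 and 10.7 for *Atad2* and 18.9, 15.1, 9.42 and 8.66 for *Mcm6*. For *Cdk6* they were *Cd44* (0.182), *Scn3a* (0.185) and *Selenop* (0.190), and for *Cdkn1a* *Slc38a4* (0.081), *CAAA01118383.1* (0.089) and *Idh1* (0.093).

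The replicate number left its mark on some of these genes. *Cdkn1a* lay above its condition mean of log2 CPM in replicates 1 and 2 and below it in replicates 3 and 4 in all 4 conditions, by at most 0.21. *Cdkn2a* and *Cdk6* lay below their means in replicate 1 and above them in replicate 4 in all 4 conditions, and *Cdkn2c* lay below in replicates 1 and 2 and above in replicate 3. *Ccnd2* and *Cdk4* lay above their means in replicate 3 in all 4 conditions. Exons of 4 further G1 genes meet genes on the opposite strand over a small part of their bases, 4.0% of *Ccnd2* with *Gm43126* and 3.9% with *9330179D12Rik*, both at no more than 15 counts in a library, 4.1% of *Ccnd3* with *Bysl*, 7.7% of *Cdkn1a* with *AC167363.2*, which was not analysed here, and 2.6% of *Cdk6* with *Gm17590*, which had at most 5 counts in a library.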

How the data were processed

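Gene expression was measured by single-end RNA-seq of 16 islet libraries prepared with a kit that does not keep strand. The authors mapped the reads with STAR to the mouse genome GRCm38, and the deposited values are whole-number counts of reads per gene without normalization. The processing notes name STAR 2.5.3a, FastQC 0.11.7, MultiQC 1.7 and bcl2fastq 2.19.1. The counting program's strand setting and the annotation release are not given in the sources used here. The reads carried no molecular identifiers. Libraries of a condition differed by more than counting error, and each was kept as a replicate.

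The members and lists of genes were chosen with earlier results of these data known. Symbols, positions and exon lengths came from GENCODE M21, promoters from RefSeq (7 of 10 members matched). In R 4.3.3, edgeR 4.0.16 filtered low counts (filterByExpr), scaled by TMM, which sets the CPM, and fitted 1 robust quasi-likelihood model with the 4 conditions to 18587 genes, with a call at an FDR under 0.01 over all of them. The SE is the log2 fold change divided by the root of F. Same-numbered libraries deviated together, with correlations over 12544 genes of 0.27 to 0.49 (IL-1β and control), 0.11 to 0.37 (butyrate and control), 0.25 to 0.42 (both and IL-1β) and 0.22 to 0.46 (both and control). Every pair was above 0.1, so the numbers were taken to pair the libraries in these 4 comparisons, on the evidence of the data and not of the labels. The medians for different numbers were -0.14 to -0.10. They are no separate evidence, since deviations from a condition mean sum to 0 and a positive value for same numbers pushes the others below 0. Pathway genes named are, for each list and comparison, up to 4 called genes with the smallest FDR, and genes that a result turns on. The procedure was tested on simulated data. Alternatives were DESeq2 1.42.0, other scalings, no filter, an FDR of 0.05, fits to the compared conditions only, the replicate block, and leaving out each library.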

Additional observations from a re-analysis of the deposited data

Results flagged for a closer look

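Each of the 10 genes was examined in each condition for a library that stands apart from the other 3, by the gap to its nearest neighbour as a share of the whole range (Dixon's ratio), and chance flags about 1 in 20 such groups of 4. In control, replicate 1 of *Ccnd1* stood apart as the highest, with 189.8 CPM against 163.3 to 164.8 in the others (ratio 0.943). With IL-1β, replicate 1 of *Cdkn2a* stood apart as the lowest, with 0.362 CPM (7 counts) against 0.828 to 0.902 in the others (ratio 0.862). The fall of *Ccnd1* with IL-1β was called without control replicate 1 as well.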

How the results depend on the processing

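No result reversed its direction under an alternative while called. Of 1549 results for single G1 genes under the alternatives, 1460 kept their direction and their side of the threshold, 41 lost a call, 21 gained one and 27 moved without a call in either analysis. The number of genes called for butyrate on top of IL-1β was 3629, and 5595 at an FDR under 0.05. For the difference of the butyrate effects it was 18, and 39 at an FDR under 0.05, 45 with DESeq2, 95 without a filter on low counts, 131 with the replicate block and upper-quartile scaling, and 29 without the 4 libraries numbered 1, an alternative chosen after seeing the data. The cause was not tested, except that the last used fewer samples. Leaving out 1 library at a time gave 11 to 25 genes for this difference, the lowest without butyrate replicate 1, and 0 G1 genes throughout. It gave 2 to 5 called G1 genes for butyrate on top of IL-1β (2 without replicate 1 of IL-1β plus butyrate), 2 to 4 for butyrate alone and 5 to 7 for IL-1β alone.

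The fit with the replicate block called 4537 genes for IL-1β against control, 4879 for butyrate against control, 4983 for butyrate on top of IL-1β, 6899 for both against control and 132 for the difference of the butyrate effects. Beside the calls of *Ccnd1* with butyrate alone and *Ccnd2* with butyrate on top of IL-1β it changed no call of the 10 genes in the paired comparisons. With it, 8 rather than 6 of the p53 targets rose with IL-1β and 11 rather than 8 fell with butyrate alone, and 11 rather than 8 of the E2F targets fell with IL-1β. Calls over all 18587 tested genes grew with the block as well. With IL-1β 2586 rather than 2087 rose and 1951 rather than 1224 fell, and with butyrate alone 2774 rather than 2112 fell. For both treatments against butyrate alone the same-numbered libraries missed the rule of more than 0.1 in every pair. Their correlations were 0.08 to 0.32. The median for different numbers was -0.1, which is pushed below 0 by the centring on condition means. The other 4 comparisons took the same numbers to pair these libraries, so missing the rule does not show that they were unpaired. The block gave 3750 genes here against 2747, and the same number of called G1 genes, 4.

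Scaling moved the balance of all calls. With upper-quartile scaling 51.5% of the genes called with IL-1β were raised, against 63.0% with TMM, and the shares were 58.5% against 42.9% for butyrate alone, 57.7% against 43.1% for butyrate on top of IL-1β, and 53.2% against 67.1% for both against butyrate. With library size only they were 79.8% for IL-1β, 66.9% against 51.6% for both against control and 87.5% for both against butyrate. Genes with few reads, *Cdkn1c* and *Cdkn2a* here, allow only large differences to be seen.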
